A study of Mus musculus with 8 samples.

Results

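The genes described here encode 9 enzymes that build ceramide, sphingomyelin and glucosylceramide: Sptlc1, Sptlc2, Cers2, Cers5, Cers6, Degs1, Sgms1, Ugcg and B4galt6. They were found by symbol among the 41730 genes and other features of the deposited count table, and each of the 9 symbols was found. RNA was measured in 8 libraries of OT-I CD8+ T cells. These carry a transgenic receptor for the ovalbumin peptide SIINFEKL, and had been cultured together with bone marrow dendritic cells presenting that peptide before flow cytometric sorting. In 4 libraries (replicates 5 to 8) the co-culture held 2 µM RGX-104, a compound that activates the liver X receptors (LXR), which sense oxidised cholesterol in the nucleus, and in 4 libraries (replicates 1 to 4) it held the solvent DMSO. The genotype was OT-I in both groups, and the labels used here give no age, sex or culture time. The agonist was present with both cell types, so a direct response of the T cells and a response passed on by the dendritic cells cannot be told apart. Whether the libraries derive from different cultures or mice is not in the labels, and p-values therefore reflect the spread among these libraries alone, which may be technical.

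Sphingolipid synthesis begins in the endoplasmic reticulum, where serine palmitoyltransferase joins serine to palmitoyl-CoA. Ceramide synthases attach a fatty acyl chain, and a desaturase converts the product to ceramide. In the Golgi, ceramide becomes sphingomyelin or, through glucosylceramide and lactosylceramide, the gangliosides and other glycosphingolipids, which together with cholesterol form ordered domains of the T cell membrane. In human CD4+ T cells, UGCG has been described as a gene under LXR control.

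Total counts were between 13144704 and 15966972 per library. The response to the agonist was visible in the sterol exporter Abca1, which rose to between 80.0 and 92.6 CPM in RGX-104 libraries, against 7.62 to 8.71 CPM in DMSO libraries (CPM, counts scaled to a common library size by the TMM method). Of 10 listed markers of CD8 T cells, 9 were in the table and 4 of the 9 tested rose, with a summed level of 2050 to 2130 CPM in RGX-104 and 1720 to 1750 CPM in DMSO libraries. Of 7 dendritic cell markers tested with edgeR, 0 were called at the adjusted p, and 0 were higher and 3 lower at an unadjusted p under 0.05. At that unadjusted p, 6.28% of all genes tested were higher and 7.52% lower. The list summed to 70.6 to 81.0 CPM in RGX-104 and 90.0 to 99.5 CPM in DMSO libraries. Most of that sum was Batf3 (58.6 CPM in RGX-104 and 72.0 CPM in DMSO libraries), a transcription factor that T cells also express. Batf3 was one of the 3, with Ccl22, a chemokine (1.61 CPM in RGX-104 and 3.66 CPM in DMSO libraries on average), and Fscn1, an actin-bundling protein (2.37 and 4.23 CPM). The groups overlapped for Fscn1. They did not for Batf3 and Ccl22, and 525 of all 12162 genes tested were likewise lower without overlap. Itgax went the other way (1.66 CPM in RGX-104 and 1.11 CPM in DMSO libraries). Flt3 (0.479 and 0.874 CPM), Zbtb46 (3.94 and 5.16 CPM) and Cd74 (5.58 and 6.52 CPM) averaged lower. None of these had an unadjusted p under 0.05. Ccl17, which was not tested, averaged 0.491 and 0.278 CPM. Clec9a, Xcr1 and Cd209a were each under 0.1 CPM on average in both groups. The class II genes H2-Eb1, H2-Ab1 and H2-Aa stand at 0 in the table with a repeated symbol, which is not read as absence. Macrophage and monocyte markers summed to 113 to 138 CPM in RGX-104 and 108 to 124 CPM in DMSO libraries, with 0 of 10 called by edgeR. The part of these markers in the results was not tested.

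The start regions of these genes were searched for letters bound by LXR and related factors. RefSeq (GRCm38.p6) gives 12 windows for 8 of the genes, each reaching from 250 bases before to 50 bases after a transcript start. B4galt6 was not matched. The full LXR element, AGGTCA repeated after a gap of 4 bases, was in none of the 12, and it is rare in such windows, with 5 of 32851 (0.0152%) holding it. The single repeat AGGTCA, searched on both strands and contained in the full element, was in 3 of the 12, against 16.3% of all windows. The E-box CACGTG, bound by helix-loop-helix factors, was in 3 of the 12 (Cers2, Cers6 and Degs1), against 7.15% of all windows. A window of Abca1 held it as well. For Abca1, which rose with the agonist, the search found neither the full LXR element nor the single repeat. Absence of these exact letters therefore does not mark a gene as unresponsive. The sterol regulatory element (ATCAC followed directly by CCCAC) and the ATF4 element TGATGNAA, both searched on both strands, were in none of the 12 (0.0913% and 3.97% of all windows). The stretches with a match are shown because they are what the search found in these genes. Each is written on the gene's own strand, 5′ to 3′, with the matched letters in capitals (TGACCT is AGGTCA read on the other strand).
Cers2 E-box, chr3:95315049-95315078, plus strand: cgccctgcggggCACGTGccacccgccccg
Cers6 E-box, chr2:68861407-68861436, plus strand: cggccaggctgcCACGTGacaggcgaggcg
Degs1 E-box, chr1:182282221-182282250, minus strand: gggagcctcaatCACGTGgtccagtcagct
Cers2 repeat, chr3:95318621-95318650, plus strand: cgtctatctatcTGACCTctgagttcatcc
Sgms1 repeat, chr19:32388122-32388151, minus strand: tcgggccaggccTGACCTcggttgacggcg
Sgms1 repeat, chr19:32349337-32349366, minus strand: cttcctggatcaAGGTCAtacatgattatt
All these stretches, of Cers2, Cers6, Degs1 and Sgms1, lie after the first base of their gene in RefSeq, read on its own strand. A match is a description of these letters only, and no match says only that they are not in this window.

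RGX-104 libraries held slightly more RNA of the ceramide synthase gene Cers2, and the other 7 tested of these 9 genes did not pass the test. Of the 9 genes, 8 had enough counts to be tested, 1 rose and 0 fell in edgeR's quasi-likelihood test at a Benjamini-Hochberg adjusted p under 0.05 over all 12162 genes tested. Among all genes tested, 0.888% were called higher and 1.78% lower. DESeq2 and limma-voom also called Cers2 alone of the 9 and none lower, against 1.16% and 0.929% of the genes each tested called higher. At an unadjusted p under 0.05, 4 of the 8 were higher (Cers2, Ugcg, Degs1 and Cers5) and 0 were lower, against 6.28% higher and 7.52% lower of all genes tested. All 8 log2 fold changes were above 0, from 0.06 to 0.33 with a median of 0.14, but those of Sptlc2, Cers6 and Sgms1 went below 0 when single libraries were left out. Of all genes tested, 50.6% were above 0 and the median was 0.00. The genes were chosen with earlier results of these data known, so the shared sign and the count at an unadjusted p are descriptions. In bulk RNA, fewer cells of a type and less RNA per cell cannot be told apart.

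**Figure D1:**
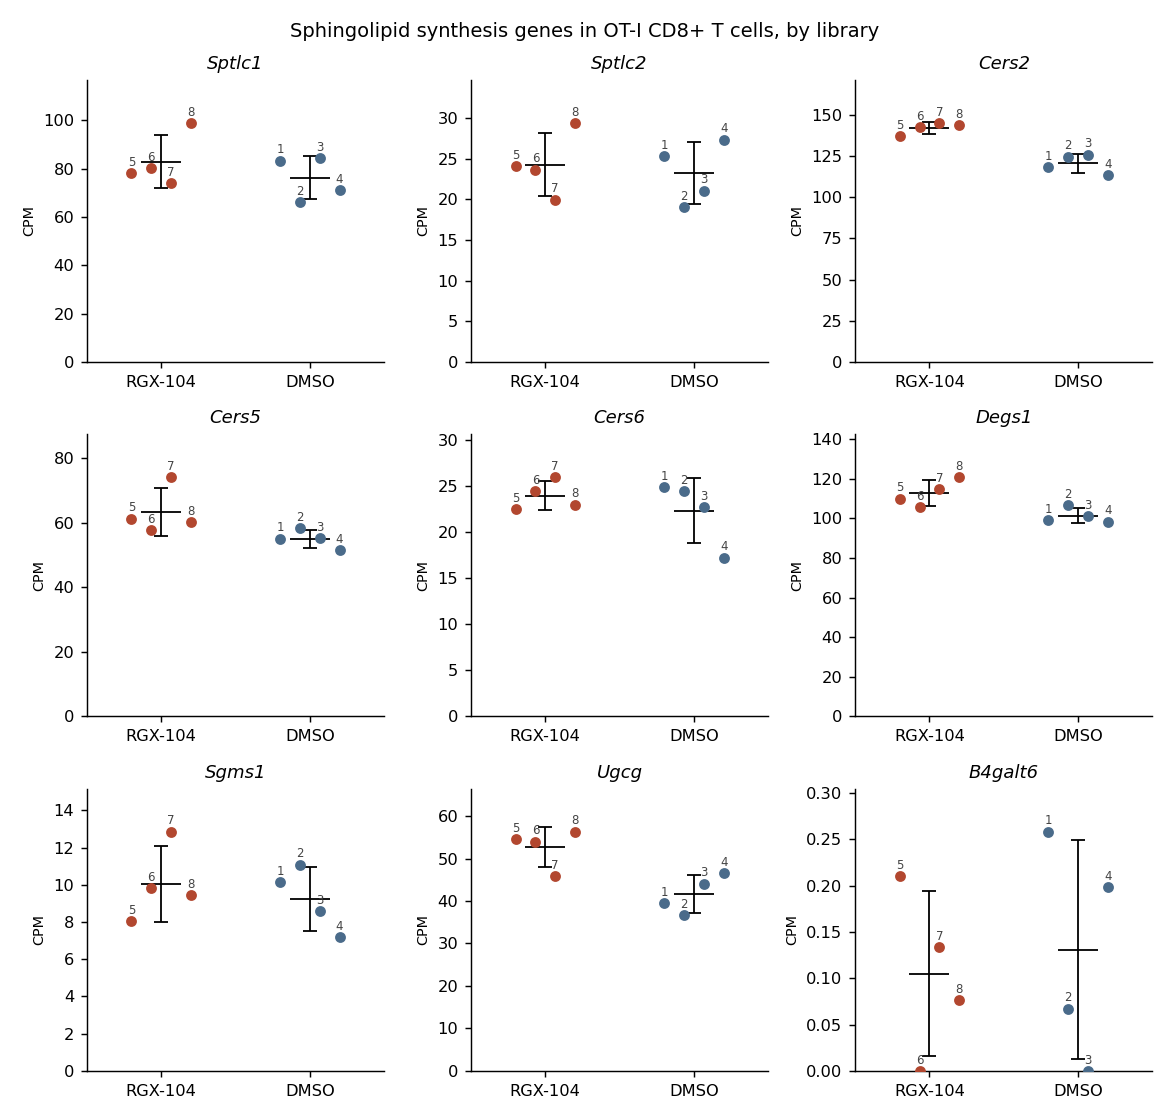
Level of each of the 9 genes in CPM (linear axis from 0), with 1 point per library labelled by its replicate number and the mean ± SD of 4 libraries in black. The 4 RGX-104 libraries lie above the 4 DMSO libraries for Cers2 only, and B4galt6 stays below 0.3 CPM everywhere.

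Serine palmitoyltransferase catalyses the first step and works as a dimer of SPTLC1 with a catalytic partner, SPTLC2 in most cells. Sptlc1 (chromosome 13, 53332748 to 53377417, minus strand) had 78.2, 80.4, 74.1 and 99.0 CPM in RGX-104 replicates 5 to 8, against 83.3, 66.3, 84.2 and 71.2 CPM in DMSO replicates 1 to 4. Only RGX-104 replicate 8 stood above the DMSO range, and the groups overlapped. The log2 fold change of Sptlc1 was 0.12 ± 0.10 (± SE; 95% interval -0.08 to 0.32; edgeR adjusted p = 0.633), and 0.0250 without RGX-104 replicate 8. Sptlc2 (chromosome 12, 87305058 to 87388355, minus strand) had 24.1, 23.6, 20.0 and 29.4 CPM in RGX-104 replicates 5 to 8, against 25.3, 19.1, 21.1 and 27.4 CPM in DMSO replicates 1 to 4. These ranges lay over each other almost completely, with a log2 fold change of 0.06 ± 0.15 (95% interval -0.24 to 0.37; edgeR adjusted p = 0.900). It was -0.04 without RGX-104 replicate 8 and -0.02 without DMSO replicate 2. The ratio of Sptlc1 to Sptlc2 counts was 1.78 ± 0.08 on the log2 scale in RGX-104 and 1.72 ± 0.26 in DMSO libraries (mean ± SD, n = 4 each). The difference was 0.05, less than the spread in either group, and from -0.06 to 0.15 with a library left out.

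Around this step, 6 of 8 other listed genes of the enzyme and its regulators were tested and 0 were called by edgeR in either direction. At an unadjusted p under 0.05, 2 were higher and 0 lower, against 6.28% and 7.52% of all genes tested. The pair best measured by reads were Sptssa, a small activating subunit, and Ormdl2, an inhibitor of the enzyme. Sptssa averaged 34.2 ± 5.32 CPM in RGX-104 and 33.5 ± 1.86 CPM in DMSO libraries (SD, n = 4 each). Ormdl2 had 41.8 to 51.0 CPM in RGX-104 and 46.3 to 51.6 CPM in DMSO libraries. Its last exon lies wholly over exons of Dnajc14 on the opposite strand, so without a stated strand setting reads there cannot be told apart. The genes with the low unadjusted p, named after their values were seen, were Ormdl3, a second inhibitor (log2 fold change 0.37 ± 0.17, edgeR adjusted p = 0.337), and Zdhhc9, a palmitoyltransferase (0.39 ± 0.17, edgeR adjusted p = 0.305).

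The ceramide synthases differ in the length of the acyl chain they attach. Cers2, which prefers very long chains (chromosome 3, 95314771 to 95323599, plus strand), had 137, 143, 145 and 144 CPM in RGX-104 replicates 5 to 8, against 118, 125, 126 and 114 CPM in DMSO replicates 1 to 4. All RGX-104 libraries stood above all DMSO libraries, which 3.88% of all genes tested also did. The mean was 142 ± 3.47 CPM in RGX-104 and 121 ± 5.81 CPM in DMSO libraries (SD, n = 4 each), a rise of 0.24 ± 0.06 on the log2 scale or 17.9% (95% interval 0.11 to 0.36 on the log2 scale; edgeR adjusted p = 0.0344). DESeq2 gave an adjusted p of 0.00587 and limma-voom 0.0355. The call was lost without the filter on low counts (edgeR adjusted p = 0.0520) and in 7 of the 8 fits that left out a library. The edgeR adjusted p was 0.0395 without RGX-104 replicate 5, 0.0948 without replicate 6, 0.101 without replicate 7 and 0.0983 without replicate 8. It was 0.105 without DMSO replicate 1, 0.0528 without replicate 2, 0.0622 without replicate 3 and 0.111 without replicate 4. In these fits the log2 fold change stayed between 0.21 and 0.26. Exons of Cers2 overlap the antisense gene 6330562C20Rik over 144 bp, none of it in the last exon of Cers2, and reads from that stretch cannot be assigned to either with certainty.

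Cers5 and Cers6 attach mainly palmitoyl chains. Cers5 (chromosome 15, 99735592 to 99772515, minus strand) had 61.3, 57.8, 74.1 and 60.2 CPM in RGX-104 replicates 5 to 8, against 55.1, 58.5, 55.3 and 51.6 CPM in DMSO replicates 1 to 4. RGX-104 replicate 7 stood above the other libraries, and replicate 6 lay within the DMSO range. The log2 fold change of Cers5 was 0.20 ± 0.09 (95% interval 0.01 to 0.39; edgeR adjusted p = 0.326), and 0.12 without RGX-104 replicate 7. Cers6 (chromosome 2, 68861145 to 69114284, plus strand) had 22.5, 24.5, 26.0 and 23.0 CPM in RGX-104 replicates 5 to 8, against 24.9, 24.5, 22.7 and 17.2 CPM in DMSO replicates 1 to 4. DMSO replicate 4 lay below all other libraries. The log2 fold change of Cers6 was 0.10 ± 0.14 (95% interval -0.18 to 0.39; edgeR adjusted p = 0.806), and -0.0010 without DMSO replicate 4. Of the reads on Cers2, Cers5 and Cers6 together, Cers2 took 62.0% ± 1.96 in RGX-104 and 60.9% ± 1.28 in DMSO libraries (SD, n = 4 each), a difference of 1.08 percentage points, which was 2.01 without RGX-104 replicate 7 and from 0.612 to 1.52 with another library left out. Cers6 took 10.45% ± 0.354 in RGX-104 and 11.2% ± 1.33 in DMSO libraries, a difference of -0.787 percentage points that ran from -1.38 to -0.340 with a library left out. Cers4 was the only other ceramide synthase tested, at 8.91 ± 2.65 CPM in RGX-104 and 8.14 ± 1.66 CPM in DMSO libraries (log2 fold change 0.13 ± 0.23). On the opposite strand, its last exon overlaps Vmn2r-ps89 over 886 bp, and its other exons overlap Gm36956 over 214 bp. Cers3 had 3 counts in the RGX-104 and 12 in the DMSO libraries together, and Cers1 is listed at 0 in all libraries.

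Degs1, the desaturase that completes ceramide (chromosome 1, 182275964 to 182282854, minus strand), had 110, 105, 115 and 121 CPM in RGX-104 replicates 5 to 8, against 99.2, 107, 101 and 98.3 CPM in DMSO replicates 1 to 4. RGX-104 replicates 5, 7 and 8 stood above the DMSO range, and replicate 6 lay below DMSO replicate 2. The log2 fold change of Degs1 was 0.15 ± 0.07 (95% interval 0.01 to 0.29; edgeR adjusted p = 0.303). Its relative Degs2 had 1 count in each group of libraries.

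Ceramide leaves this pathway toward sphingomyelin through SGMS1, or toward glycosphingolipids through UGCG, which adds glucose. Ugcg (chromosome 4, 59189507 to 59222833, plus strand) had 54.6, 54.0, 45.8 and 56.3 CPM in RGX-104 replicates 5 to 8, against 39.5, 36.7, 44.1 and 46.6 CPM in DMSO replicates 1 to 4. RGX-104 replicates 5, 6 and 8 stood above every DMSO library, and RGX-104 replicate 7 lay below DMSO replicate 4. The mean was 52.7 ± 4.68 CPM in RGX-104 and 41.7 ± 4.48 CPM in DMSO libraries (SD, n = 4 each), and the log2 fold change was 0.33 ± 0.10 (95% interval 0.12 to 0.55; unadjusted p = 0.00332, edgeR adjusted p = 0.0932). This point estimate was the largest of the 8 tested genes, but it did not pass the threshold in edgeR, in DESeq2 (adjusted p = 0.0541), in limma-voom (adjusted p = 0.0966) or in the other settings and single-library omissions tried (edgeR adjusted p from 0.0614 to 0.251).

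Sgms1 (chromosome 19, 32122727 to 32389885, minus strand) was measured with fewer reads, 109 to 192 counts per library. It had 8.07, 9.80, 12.9 and 9.45 CPM in RGX-104 replicates 5 to 8, against 10.1, 11.1, 8.58 and 7.20 CPM in DMSO replicates 1 to 4. The groups overlapped, and the highest value was that of RGX-104 replicate 7. The log2 fold change of Sgms1 was 0.12 ± 0.20 (95% interval -0.30 to 0.54; edgeR adjusted p = 0.859), and -0.02 without RGX-104 replicate 7, so a change of the size seen for Ugcg lies within its interval. The ratio of Sgms1 to Ugcg counts was -2.41 ± 0.40 on the log2 scale in RGX-104 and -2.19 ± 0.43 in DMSO libraries (mean ± SD, n = 4 each). The difference was -0.22, less than the spread within either group, but it was -0.41 when RGX-104 replicate 7 was left out and -0.07 when DMSO replicate 2 was. Of 8 tested other genes of sphingomyelin synthesis and ceramide transport, 0 were called by edgeR and 0 had an unadjusted p under 0.05. Vapa, which anchors the ceramide carrier at the endoplasmic reticulum, averaged 202 ± 8.22 CPM in RGX-104 and 195 ± 6.30 CPM in DMSO libraries. Its relative Vapb averaged 64.9 ± 8.59 CPM in RGX-104 and 65.8 ± 8.02 CPM in DMSO libraries. Sgms2 is listed at 0 with a repeated symbol and is not read as absent.

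**Figure D2:**
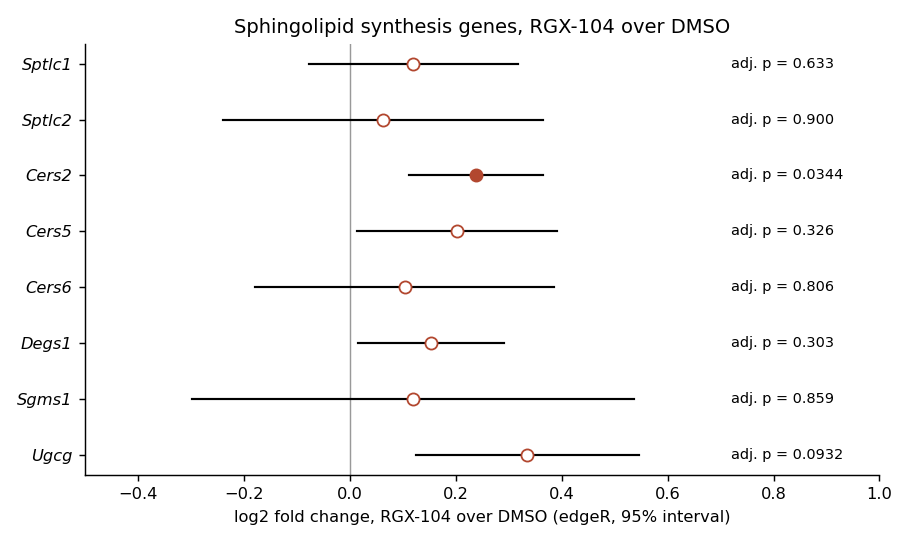
Log2 fold change (RGX-104 over DMSO, edgeR) of the 8 tested genes in pathway order, with 95% intervals and the adjusted p over all genes; a filled point passed 0.05. Cers2 is the filled point at 0.24, and the intervals of Sptlc1, Sptlc2, Cers6 and Sgms1 cross 0.

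**Figure D3:**
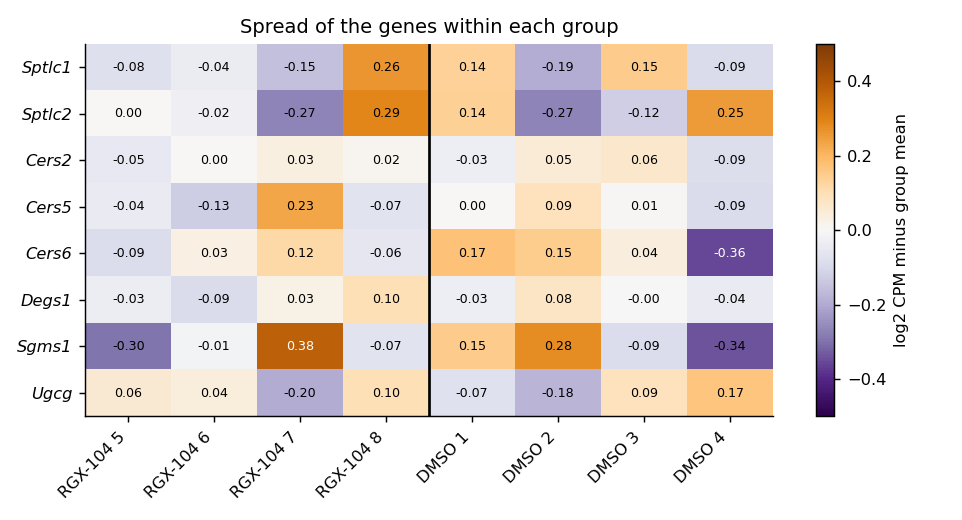
Log2 CPM of each tested gene in each library minus the mean of its own group, so treatment is removed and only the spread between replicates is left. Cers2 departs by at most 0.09 in size, while Sgms1 reaches 0.38 in RGX-104 replicate 7 and -0.34 in DMSO replicate 4.

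The spread between replicates was uneven among the genes, as the map of departures from the group mean shows. Sgms1 and Ugcg departed in opposite directions in RGX-104 replicate 7 (0.38 and -0.20 on the log2 CPM scale) and in DMSO replicate 4 (-0.34 and 0.17). Sptlc1 and Sptlc2 were both highest in RGX-104 replicate 8 (0.26 and 0.29). Cers2 had the smallest departures of the 8, from -0.09 to 0.06. The cause of these departures was not tested.

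Lactosylceramide is made from glucosylceramide by the galactosyltransferases B4GALT5 and B4GALT6. B4galt6 (chromosome 18, 20684599 to 20746404, minus strand) had 3, 0, 2 and 1 counts in RGX-104 replicates 5 to 8, against 4, 1, 0 and 3 counts in DMSO replicates 1 to 4. It failed the filter on low counts and was not tested, and no difference was detectable at this depth. The related B4galt5 (chromosome 2, 167298444 to 167349178, minus strand) had 89.4, 81.8, 94.9 and 85.7 CPM in RGX-104 replicates 5 to 8, against 62.8, 65.2, 61.0 and 69.8 CPM in DMSO replicates 1 to 4. All RGX-104 libraries stood above all DMSO libraries. B4galt5 averaged 88.0 ± 5.58 CPM in RGX-104 and 64.7 ± 3.79 CPM in DMSO libraries (SD, n = 4 each), a rise of 0.44 ± 0.08 on the log2 scale (edgeR adjusted p = 0.00131). The call of B4galt5 held in every setting and every single-library omission tried (adjusted p from 5.69e-06 to 0.0103).

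Of 7 tested genes of glycosphingolipid synthesis other than Ugcg and B4galt6, B4galt5 was the 1 that rose and 0 fell. B4galnt1, which makes the complex gangliosides, averaged 216 ± 6.46 CPM in RGX-104 and 200.5 ± 16.7 CPM in DMSO libraries (log2 fold change 0.11 ± 0.06, edgeR adjusted p = 0.454; 0.05 without DMSO replicate 2). Its last exon, of 715 bp, lies wholly over exons of Slc26a10 on the opposite strand. Without a stated strand setting, reads there cannot be told apart.

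**Figure D4:**
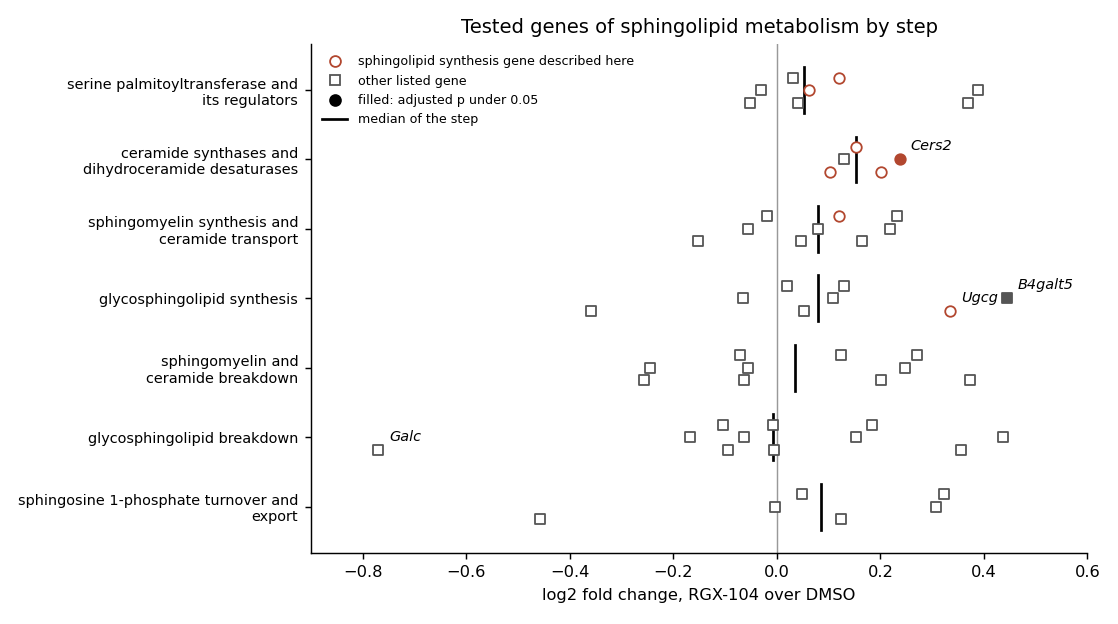
Log2 fold change (RGX-104 over DMSO) of the tested genes of 7 steps of sphingolipid metabolism, with circles for the genes described here, squares for other listed genes, filled symbols for an adjusted p under 0.05 and a black line for the median of the step. Cers2 and B4galt5 are the filled symbols, and the medians lie between -0.01 and 0.15.

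The steps that take sphingolipids apart gave no called gene in edgeR. At an unadjusted p under 0.05, 6.28% of all genes tested were higher and 7.52% lower. Of 10 tested genes of sphingomyelin and ceramide breakdown, 1 was higher and 0 were lower at that p. It was Smpd4, a neutral sphingomyelinase, at 58.8 ± 6.79 CPM in RGX-104 and 48.7 ± 1.87 CPM in DMSO libraries (log2 fold change 0.27 ± 0.09, edgeR adjusted p = 0.164). Acer3, an alkaline ceramidase, averaged 23.7 ± 4.08 CPM in RGX-104 and 20.6 ± 3.63 CPM in DMSO libraries.

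Of 11 tested genes of glycosphingolipid breakdown, 0 were higher and 1 was lower at an unadjusted p under 0.05 (all genes: 6.28% and 7.52%). It was Galc, the lysosomal galactosylceramidase, named after its values were seen. Galc had 8.14, 4.87, 5.96 and 4.72 CPM in RGX-104 replicates 5 to 8, against 7.17, 13.4, 10.9 and 8.98 CPM in DMSO replicates 1 to 4. RGX-104 replicate 5 lay within the DMSO range and the other RGX-104 libraries below it, with a log2 fold change of -0.77 ± 0.24 (edgeR adjusted p = 0.0982). Without RGX-104 replicate 5 Galc was called lower (log2 fold change -0.96, edgeR adjusted p = 0.0417), and in the other settings and omissions tried it was not (adjusted p from 0.0576 to 0.306). The activators of lysosomal breakdown, Psap and Gm2a, had log2 fold changes of -0.10 ± 0.10 and -0.01 ± 0.12, and that of Psap ran from -0.16 to -0.05 with a library left out.

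Of 6 tested genes of sphingosine 1-phosphate turnover, 0 were called by edgeR. At an unadjusted p under 0.05, 1 was higher and 0 were lower, against 6.28% and 7.52% of all genes tested. It was Sgpp1, a phosphatase that returns sphingosine 1-phosphate to sphingosine, at 43.4 ± 2.96 CPM in RGX-104 and 35.1 ± 3.92 CPM in DMSO libraries (log2 fold change 0.31 ± 0.11, edgeR adjusted p = 0.163). Sphk2, a sphingosine kinase, averaged 40.8 ± 0.305 CPM in RGX-104 and 40.9 ± 2.54 CPM in DMSO libraries. Its last exon overlaps Dbp on the opposite strand over 539 bp, and its other exons overlap Rpl18 on that strand over 373 bp. Taking the 7 lists without the 9 genes, 49 of 67 genes in the table were tested, and 1 rose and 0 fell. Of the 49, 28 (57.1%) had a log2 fold change above 0, with a median of 0.05, against 50.6% and 0.00 over all genes tested.

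Likeness of pattern was taken for Cers2 because it was the 1 of the 9 genes past the threshold. Among all tested genes, its log2 CPM over the 8 libraries was most like that of Gm41395 (Pearson r = 0.974), Arl4c (0.970) and Rbm3os (0.966). Arl4c encodes a small GTP-binding protein and is a known LXR target. It averaged 110 ± 9.20 CPM in RGX-104 and 59.7 ± 4.85 CPM in DMSO libraries. Gm41395 (2.10 and 0.682 CPM) and Rbm3os (1.02 and 0.343 CPM) had few reads. Arl4c was called higher (edgeR adjusted p = 2.75e-07), and Gm41395 (0.0937) and Rbm3os (0.210) were not called. The 8 points share the split into RGX-104 and DMSO, so these values describe likeness of pattern only.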

How the data were processed

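The deposited values are raw read counts. A Lexogen kit that reads transcript ends was used on total RNA, per the labels' protocols. The submitters' processing notes name STAR 2.7.8a, R 4.1.0, DESeq2 1.4 and GRCm38. How reads were counted (tool, strand, annotation, molecular identifiers) is not given in the sources used here. Columns were matched to samples by number and group word, with 0 columns of another series. Counting error alone does not cover PCR duplicates.

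The test was that of edgeR 4.0.16 under R 4.3.3 (filterByExpr, TMM, glmQLFit and glmQLFTest, two-sided, group as the only term, 8 libraries), with Benjamini-Hochberg adjustment over 12162 genes and a threshold of 0.05. CPM are counts over the TMM-scaled library size, and SE is the log2 fold change over the square root of F. The common biological coefficient of variation came to 14.5%. No libraries of a group agreed within counting noise (chi-square over degrees of freedom 6.34 to 9.60). Alternatives were DESeq2 1.42.0, limma-voom (limma 3.58.1), RLE or no scaling factors, no filter, removal of 2339 repeated symbols, robust dispersion and each library left out. Scripts were tested on simulated data.

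The genes and lists were chosen with earlier results of these data known. Named genes were the 9 genes, called genes of the lists, the 2 tested genes per list with the highest mean CPM, and Abca1 and Abcg1. Others are named as chosen after their values were seen. Likeness used log2 CPM with a prior count of 2. Coordinates (1-based) and start regions came from RefSeq GRCm38.p6, and exon overlaps of at least 100 bp from GENCODE M21 (GRCm38). Ends of transcripts were counted, so reads were not divided by length. Levels of different genes were ranked to choose the named genes of each list. They were also set against each other in the marker sums, the ceramide synthase shares and the count ratios.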

Additional observations from a re-analysis of the deposited data

Results flagged for a closer look

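In each group of 4 libraries, the lowest or highest value was set against Dixon's critical value, for 48 groups of named genes, of which 2 were past it. Chance passes it in about 5% of groups. None of the 18 groups of the 9 sphingolipid synthesis genes was past it. Smpd4 in DMSO replicate 3 was at 51.5 CPM, with the nearest DMSO library at 48.0 CPM. Abcg1, a sterol exporter, was at 13.1 CPM in DMSO replicate 3, with the nearest DMSO library at 9.18 CPM, and at 41.3 to 60.3 CPM in RGX-104 libraries.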

How the results depend on the processing

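No paired analysis was possible because the groups share no replicate number. Over 7 other settings, all 8 tested sphingolipid synthesis genes kept their sign, and Cers2 kept its call except without the filter on low counts (log2 fold change 0.24, adjusted p = 0.0520, so 0 of the genes called higher). With each library left out in turn, Cers2 ran from 0.21 to 0.26 (adjusted p from 0.0395 to 0.111), and the count of called genes among the 9 from 0 to 1 higher and 0 lower. Sptlc2 ran from -0.0412 to 0.15, Cers6 from -0.0010 to 0.16 and Sgms1 from -0.0228 to 0.22 in these fits, so their direction turned. Among the other named genes the same held for Sptssa (-0.0544 to 0.0955), Ormdl2 (-0.0622 to 0.0303), Cers4 (-0.0121 to 0.31), Vapb (-0.0794 to 0.0676), Gm2a (-0.0584 to 0.0457) and Sphk2 (-0.0360 to 0.0281). Other listed genes called lower ran from 0 to 1 (Galc, without RGX-104 replicate 5), and 1 was called higher throughout. Over all genes, 108 were called higher in the fit reported, 167 with DESeq2 and 57 to 93 with a library left out. The 216 called lower were 274 with DESeq2 and ran from 144 to 211 with a library left out. The cause of these changes was not tested, and the fits with a library left out also had fewer samples. Depth limits Sgms1, with 109 to 192 counts per library, and B4galt6, with 0 to 4.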
